A study of Mus musculus with 384 samples.

Results

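Chromatin accessibility around 34 genes of epithelial cell junctions was read from the accessible windows of 1 mouse breast tumor. The genes encode 18 components of tight junctions, 5 of adherens junctions, 8 of desmosomes and 3 of the apical polarity complexes that place these junctions. They were chosen by name as junction components, by a rule that uses no accessibility value but with earlier results of these data known, from the 22350 protein-coding genes on the chromosomes that held windows. All 34 were matched by symbol to the GENCODE vM1 annotation of mouse build mm9. A window counted as a promoter window where its centre was no more than 1 kb from a transcription start site that the annotation gives the gene, and the surroundings of a gene reach 50 kb from any of its start sites.

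The cells came from an MMTV-PyMT tumor of a mouse killed at 3 months, where a mammary tumor virus promoter drives the polyoma middle T oncogene in mammary epithelium. After perfusion with fixative, antibodies were added to the dissociated cells against EpCAM, which epithelial cells use for adhesion, and against CD45, which marks leukocytes. Transposase-tagged single cells were sorted by Pi-ATAC, which records protein staining together with accessible DNA, into 4 plates of 96 wells. The study's methods state that no stain was selected in the sort, whereas its supplement describes gates that collected EpCAM+ and CD45+ cells. Of the cells that passed the study's filter, somewhat more were CD45+ than EpCAM+. Among all stained cells of the tumor, the study found CD45+ cells far rarer than EpCAM+ cells. The pool was therefore not an unselected sample of the tumor, and leukocytes made up a large part of it. All wells form 1 group in the labels, and the deposited data are 1 list of 50000 windows, each 500 bp wide, made from all cells together. There are no replicates and no score or count per window. A window therefore states that DNA was open often enough in the pool to be listed, and a small share of cells with very open DNA cannot be told apart from many cells with slightly open DNA. A gene without a window was not among the kept windows, which does not show that its chromatin was closed.

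Epithelial cells are joined by several kinds of junction. Tight junctions seal the space between cells with claudins and occludin, which are tied to actin by scaffold proteins. Adherens junctions link the actin of neighbouring cells through cadherins and catenins, desmosomes link intermediate filaments through desmosomal cadherins, plakoglobin, plakophilins and desmoplakin, and polarity proteins set the border between the apical and basolateral membrane. In mammary epithelium these junctions hold the luminal layer together, and the repressors of the SNAI and ZEB families, which lower E-cadherin when epithelial cells become mesenchymal, bind the letters CAGGTG.

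Promoters that carried several copies of that word are shown first. Each sequence runs 5′ to 3′ in the direction of the gene, with 250 bases before the start site and 50 from it, and the capitals mark CAGGTG or its reverse CACCTG. The bases were read from the mm9 genome (NCBIM37). The positions are chr8:109127001-109127300 on the plus strand for Cdh1 (E-cadherin), chr17:57201404-57201703 on the plus strand for Crb3, chr5:135422755-135423054 on the minus strand for Cldn4 and chr11:115685113-115685412 on the plus strand for Llgl2.
Cdh1: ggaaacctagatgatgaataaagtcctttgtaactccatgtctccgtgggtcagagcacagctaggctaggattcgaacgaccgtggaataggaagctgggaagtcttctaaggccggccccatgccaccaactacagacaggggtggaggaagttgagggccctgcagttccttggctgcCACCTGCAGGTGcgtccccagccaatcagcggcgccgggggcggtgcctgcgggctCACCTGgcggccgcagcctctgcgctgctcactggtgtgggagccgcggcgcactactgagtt
Crb3: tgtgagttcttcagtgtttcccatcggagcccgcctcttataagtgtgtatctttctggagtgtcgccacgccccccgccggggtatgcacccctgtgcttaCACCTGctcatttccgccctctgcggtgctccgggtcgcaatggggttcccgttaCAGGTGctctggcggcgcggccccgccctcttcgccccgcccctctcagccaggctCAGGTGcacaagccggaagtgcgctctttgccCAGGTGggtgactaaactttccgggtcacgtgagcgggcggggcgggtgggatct
Cldn4: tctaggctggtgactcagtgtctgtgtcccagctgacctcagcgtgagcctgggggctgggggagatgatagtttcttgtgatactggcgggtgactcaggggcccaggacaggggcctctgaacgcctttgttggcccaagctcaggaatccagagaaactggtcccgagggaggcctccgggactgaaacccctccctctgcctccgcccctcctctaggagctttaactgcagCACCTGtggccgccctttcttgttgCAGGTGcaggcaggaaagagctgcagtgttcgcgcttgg
Llgl2: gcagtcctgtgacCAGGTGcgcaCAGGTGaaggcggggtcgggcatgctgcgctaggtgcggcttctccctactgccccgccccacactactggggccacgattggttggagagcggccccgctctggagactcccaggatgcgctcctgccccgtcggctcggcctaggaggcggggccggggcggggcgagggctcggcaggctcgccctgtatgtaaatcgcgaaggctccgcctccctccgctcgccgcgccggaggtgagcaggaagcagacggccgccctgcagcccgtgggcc

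In Cdh1 the first bases of the words stood at −69, −63 and −13, counting the start site as 0, and the upstream pair touched without a base between them. In Crb3 there were 4 words, at −148, −93, −37 and −5. Those of Cldn4 stood at −14 and 11, on either side of the start site, and those of Llgl2 at −237 and −227. All of them lay inside a listed window.

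Words of other factors were searched as well. The next 3 sequences are short stretches of the plus strand centred on 1 word, with the word in capitals. They show the AP-1 word in the promoter window of Ocln (occludin), chr13:101323136-101323236, the AP-1 word in an intergenic window upstream of Cdh1, chr8:109087826-109087926, and the word of grainyhead-like (GRHL) factors in an intergenic window upstream of Cldn1, chr16:26400337-26400437. The window of the Cdh1 sequence was centred 39287 bp upstream and lay nearer to the coding gene Gm10073. That of the Cldn1 sequence was 28629 bp upstream, with Cldn1 as its nearest coding gene. AP-1 is a dimer of Fos and Jun proteins, and GRHL factors are activators of epithelial genes.
Ocln AP-1: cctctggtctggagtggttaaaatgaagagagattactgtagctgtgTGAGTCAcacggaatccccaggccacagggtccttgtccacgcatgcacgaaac
Cdh1 AP-1: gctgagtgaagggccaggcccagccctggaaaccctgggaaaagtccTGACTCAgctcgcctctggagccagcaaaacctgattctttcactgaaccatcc
Cldn1 GRHL: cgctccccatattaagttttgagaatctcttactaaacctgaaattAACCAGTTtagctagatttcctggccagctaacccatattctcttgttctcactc

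A promoter window was found at 18 of the 34 junction genes, or 52.9% (exact binomial 95% interval 35.1 to 70.2). The share over all protein-coding genes was 43.5% (9718 of 22350), which lies inside that interval. The share of coding genes with a promoter window rose from 1.97% in the poorest to 71.8% in the richest of 10 classes of CpG count within 500 bp of a start site, so each gene was also set beside the coding genes of its own class. For coding genes of the same classes the share averaged 58.2%, equal to an expected 19.8 of 34. The intervals cover counting error only, and genes are not replicates of a condition.

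The class of a gene was set by its start site with most CpGs, which need not be the one with the window. Split in this way, the CpG-poorer junction genes had a promoter window about as often as the CpG-richer ones. Of the 9 in the 5 classes with fewer CpGs, 5 had one (55.6%, interval 21.2 to 86.3), against an average of 31.0% for coding genes of their own classes. These were Cldn1, Cldn4, Cldn8, Ctnnd1 and Pkp3. Of the 25 in the 5 richer classes, 13 had one (52%, 31.3 to 72.2), against 68.0%. Both intervals include the value of the coding genes. Tjp1, the scaffold ZO-1, was in the richest class and had no promoter window, whereas Cldn8 had 18 CpGs and carried 2.

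**Figure D1:**
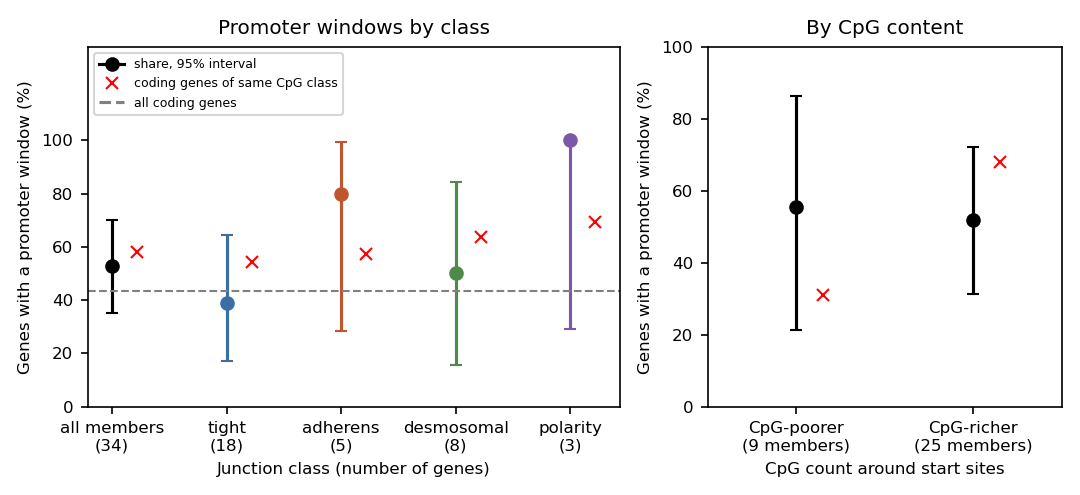
Left, the percentage of genes with a promoter window for all 34 junction genes and for each class (points, with exact 95% binomial intervals), beside the mean share of coding genes of the same CpG class (crosses) and the 43.5% of all coding genes (dashed line). Right, the same percentages for the 9 CpG-poorer and the 25 CpG-richer junction genes, with intervals and crosses as on the left. The points stand at 55.6% and 52%, the crosses at 31.0% and 68.0%, inside both intervals.

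The junction classes differed in the counts, but their intervals overlapped. Of the tight junction genes, 7 of 18 had a promoter window (38.9%, interval 17.3 to 64.3), of the adherens junction genes 4 of 5 (80%, 28.4 to 99.5), of the desmosomal genes 4 of 8 (50%, 15.7 to 84.3) and of the polarity genes 3 of 3 (100%, 29.2 to 100). Within the tight class, 4 of 11 claudins and 3 of 7 other genes had one. The coding genes of the same CpG classes averaged 54.2%, 57.3%, 63.9% and 69.4% for the 4 classes in that order. With intervals this wide, no order of the classes can be read from the shares.

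Among the claudins, the strand-forming membrane proteins of tight junctions, the promoter windows were at Cldn1, Cldn4, Cldn8 and Cldn23. The window of Cldn1, a barrier-forming claudin, was at chr16:26371663-26372162, with its centre 14 bp downstream of the start site. That of Cldn4, also a barrier claudin, was at chr5:135422537-135423036, 17 bp downstream. Cldn8 had windows centred at −0.16 kb and 0.64 kb from its start site (negative is upstream), and the window of Cldn23 was centred 77 bp upstream. Each of these 4 genes has 1 annotated start site.

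The other 7 claudins (Cldn3, Cldn6, Cldn7, Cldn10, Cldn12, Cldn15 and Cldn18) had no promoter window. Cldn10 and Cldn15 form ion pores, and Cldn3 and Cldn7 are found in many epithelia. Cldn6, a claudin of early epithelia, had one 1833 bp into the gene, and Cldn18, known from lung and stomach, had one in an intron, 2574 bp upstream of an internal start site. Cldn3 and Cldn4 are neighbours, and 5 of the 6 windows around Cldn3 were also counted for Cldn4 and lay nearer to it. The 8 windows within 50 kb of Cldn7 were all at promoters of other genes (Eif5a, Rai12, Ctdnep1, Gabarap, Phf23 and Dvl2), the nearest 13766 bp away. No window had Cldn3, Cldn7, Cldn12 or Cldn15 as its nearest coding gene.

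Of the tight junction genes that are not claudins, Ocln, Cgn and F11r had promoter windows. Cgn (cingulin), a protein that ties the junction to the cytoskeleton, had one at −0.15 kb, chr3:94590313-94590812. F11r, the junctional adhesion molecule JAM-A, had one centred 6 bp upstream, at chr1:173367410-173367909. The window of Ocln was 479 bp upstream, farther out than the nearest promoter window of any other of these genes. Tjp1 and Tjp3 (the scaffolds ZO-1 and ZO-3) and Marveld2 and Marveld3, relatives of occludin at cell contacts, had none. The nearest window of Tjp1 was in an intron, 2063 bp upstream of an internal start site that lies 68934 bp from the first. That of Tjp3 was 1606 bp upstream of the gene, at the promoter of Pip5k1c.

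In the adherens class, the cadherin Cdh1 and the catenins Ctnna1, Ctnnb1 and Ctnnd1 had promoter windows, and the P-cadherin gene Cdh3 did not. Cdh1 had windows at chr8:109126994-109127493, centred 7 bp upstream of a start site, and at chr8:109127710-109128209, 83 bp upstream of a later one. Ctnna1 (α-catenin), the link to actin, had windows at −0.26 kb and 0.38 kb. Ctnnb1 (β-catenin), which is both the binding partner of cadherins and a Wnt effector, had its window 68 bp upstream of a start site 4184 bp inside the annotated gene, in a CpG-rich stretch. The first annotated start site of Ctnnb1, with 18 CpGs, had none. Ctnnd1 (p120-catenin), which keeps cadherins at the membrane, had its window 62 bp downstream of a start site. That window held 9 CpGs. Cdh3 had 1 window within 50 kb, in an intron 38741 bp downstream of the start site and nearer to another coding gene.

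In the desmosomal class, Jup, Pkp2, Pkp3 and Perp had promoter windows. Jup (plakoglobin), which serves desmosomes and adherens junctions alike, had one at −0.14 kb. Pkp2, a plakophilin that links desmosomal cadherins to desmoplakin, had one at −0.13 kb, and Perp, a membrane protein of desmosomes that is also a p53 target, had one at −0.17 kb. Pkp3, another plakophilin, had windows at 2 groups of start sites, 69 bp downstream of one and 85 bp upstream of another. Dsp (desmoplakin), Dsg2 and Dsc2 (desmosomal cadherins) and Pkp1, a plakophilin of stratified epithelia, had none. The nearest window of Dsp was in an exon, 3199 bp upstream of an internal start site that lies 27039 bp from the first. That of Dsg2 was 3519 bp upstream of the gene, that of Pkp1 was in an intron 13550 bp from a start site, and that of Dsc2 was 92111 bp away.

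All 3 polarity genes had a promoter window. Crb3, a small apical membrane protein of the Crumbs complex, had one centred 10 bp upstream of a start site, at chr17:57201394-57201893, and Llgl2, a basolateral protein of the Lgl family, had one at −0.10 kb. Pard3, a scaffold of the Par complex, was different. Its 9 start sites within 454 bp of the first, in a CpG-rich stretch, had no window. Its window stood 41 bp downstream of an internal start site, 9347 bp farther on and with 9 CpGs.

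The promoter count depended on which start sites were used. Of all their annotated start sites, 51 (33.1%) had a window within 1 kb. At the most 5′ start site alone, 14 genes had a window (41.2%, against 39.4% of coding genes), because those of Ctnnb1, Pkp3, Pard3 and Crb3 stood at later ones. Of the 8 genes with 1 start site, 6 had a window. Of the 26 with more, 12 had one. Neither this split nor the share of all annotated start sites was computed for coding genes, so these counts describe the junction genes only.

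Counted within 50 kb, the median junction gene had more windows than the median coding gene, and the gap was smaller beside genes of like CpG content. At least 1 window lay near 33 of the 34, where the share of coding genes was 84.6%, and Dsc2 was the exception. The median was 5 windows per junction gene, with a mean of 6 and a range of 0 to 20, against a median of 3 and a mean of 4.10 over coding genes. The coding gene medians of the same CpG classes averaged 3.88 over the junction genes. Within 10 kb the median was 1 for junction and coding genes alike. The nearest window was a median of 370 bp from a start site, against 3253 bp over coding genes, which were not matched for CpG content here. Because 18 of the 34 junction genes had a promoter window, this median falls among those genes and restates the promoter share. When each window was given only to its nearest coding gene, the medians were 2 and 1. The median window count was 5 for tight, 9 for adherens, 2 for desmosomal and 9 for polarity genes, with ranges of 2 to 9, 1 to 19, 0 to 20 and 6 to 14.

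**Figure D2:**
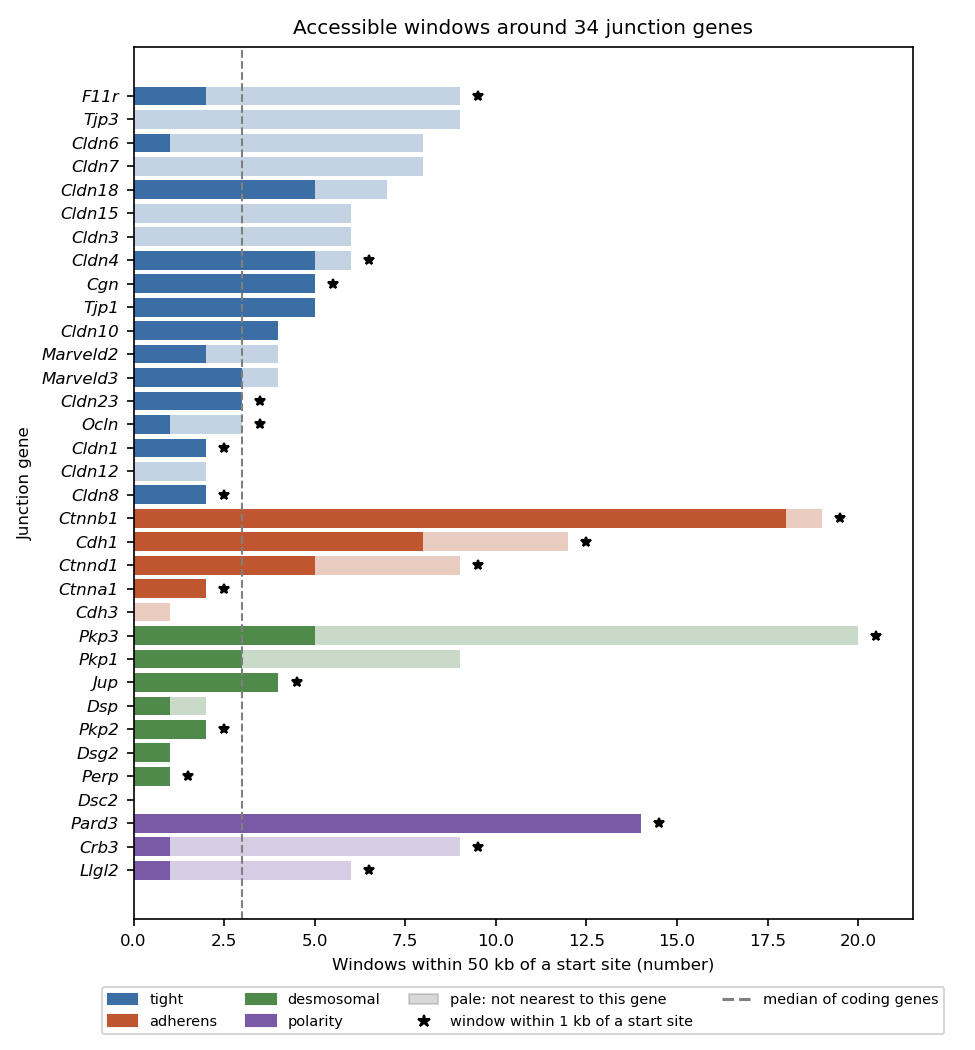
Window counts within 50 kb for each of the 34 junction genes, coloured by class. The solid part of a bar counts windows for which that gene is the nearest coding gene, the pale part the others, stars mark genes with a promoter window and the dashed line is the coding gene median of 3. Pkp3 (20), Ctnnb1 (19), Pard3 (14) and Cdh1 (12) reach farthest, and Dsc2 has 0.

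The 2 genes of each class with most windows differed in whose windows these were. Ctnnb1 had 19, and for 18 of them it was the nearest coding gene, although 9 of the 19 lay inside the neighbouring gene Ulk4. Cdh1 had 12, of which 8 were nearest to it. Besides its promoter windows, 6 of them lay in introns of Cdh1, between 4204 bp and 32715 bp from a start site, and the remaining 4 were upstream, 16322 bp to 42099 bp away. Pard3 had 14, all nearest to Pard3, in a gene with start sites spread over 515831 bp. Crb3 had 9, and only the promoter window was nearest to it. Of the 20 around Pkp3, 5 were nearest to it, and others stood at the promoters of Sigirr, Ano9 and Ptdss2. Pkp1 had 9, of which 3 were nearest to it and 4 to Tnnt2. F11r had 9, of which 2 were nearest to it, and Tjp3 had 9, none of them nearest to it.

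**Figure D3:**
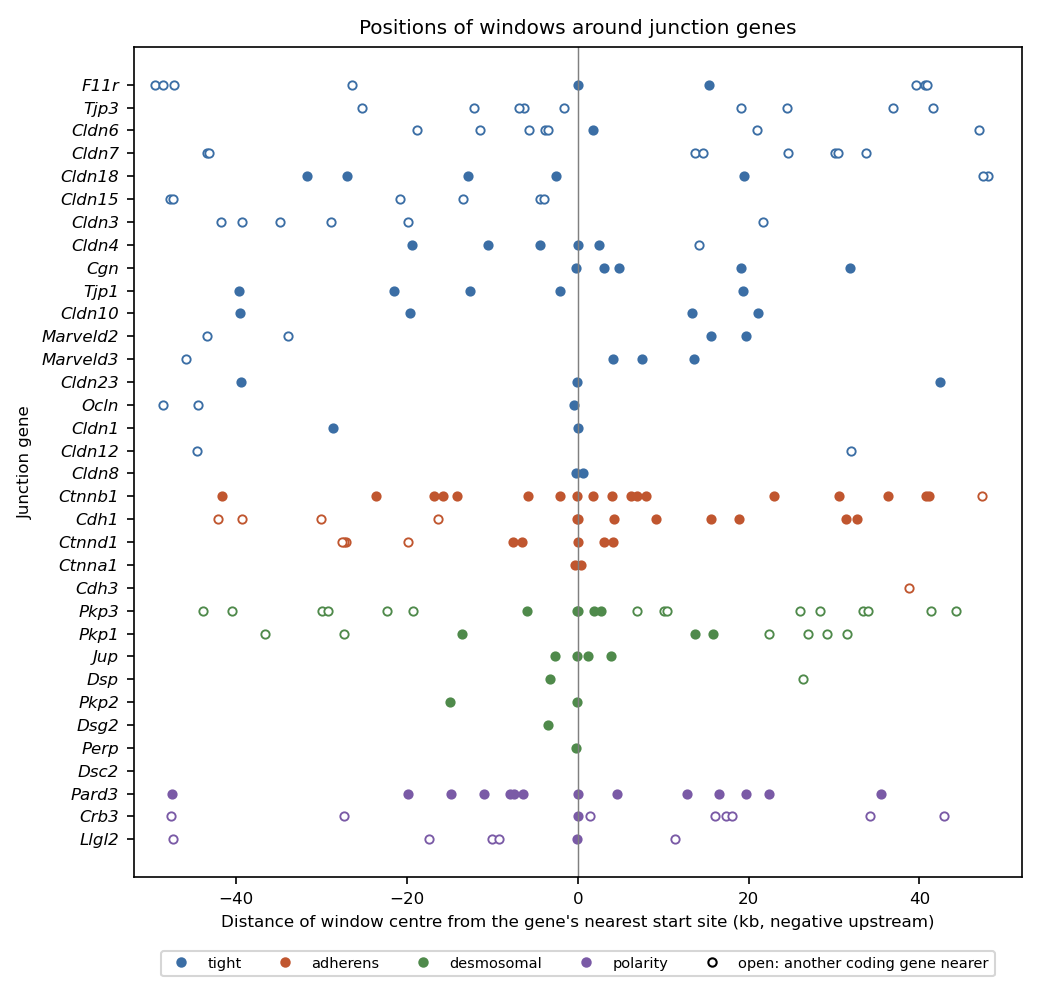
Each circle is 1 window, placed by the distance of its centre in kb from the nearest start site of the junction gene in that row (negative is upstream). Filled circles are windows whose nearest coding gene is that gene, open circles those nearer to another; Ctnnb1 and Pard3 have rows of filled circles, while the rows of Tjp3, Cldn7, Cldn15 and Cldn3 hold open circles.

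Together these surroundings held 0.394% of the list, each window counted once. Introns held 65 of these windows, intergenic DNA 40 and exons 20, and 72 lay within 1 kb of some start site, 22 of them at promoters of the junction genes. The nearest coding start site belonged to a junction gene for 53.8%. Windows counted for more than 1 junction gene numbered 7, of which 5 lay at or near Cldn4, within 50 kb of Cldn3 as well, and 2 in Marveld2, within 50 kb of both Marveld2 and Ocln.

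The share of called peaks that was kept in the list differed by chromosome. It was 41.5% to 51.8% on chromosomes 7, 8, 9 and X and 23.6% to 26.5% on the other 16. Of the junction genes, 9 lie on 7, 8 or 9, namely Tjp1, Pkp3, Cldn23, Marveld3, Cdh1, Cdh3, Pard3, Cldn18 and Ctnnb1. The 4 genes with most windows are among them. Among the 25 others, 13 had a promoter window (52%, against 42.8% of coding genes). Their median was 4 windows within 50 kb, against 3 for coding genes outside chromosomes 7, 8, 9 and X.

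Of the 8 words searched, CAGGTG was the most frequent in the promoter windows of junction genes. It was present, on either strand, in 15 of the 22 windows (68.2%, interval 45.1 to 86.1), against 32.9% of all 13310 windows within 1 kb of a start site and 32.9% on average of those with GC content within 2 percentage points. At least 2 copies stood in 10 of the 22 (45.5%), against 7.09%. The mean was 1.41 copies per window, against 0.416. By gene, 13 of the 18 with a promoter window had the word in one. Crb3 and Llgl2 had 4 copies, Cdh1 had 3 and 2 in its windows, Pkp3 had 3 and 2, and Cldn4 and Cldn23 had 2. One window each of Cldn8 and Ctnna1 had 2, and Cldn1, F11r, Jup, Perp and Pkp2 had 1. The promoter windows of Ocln, Cgn, Ctnnb1, Ctnnd1 and Pard3 had 0.

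The word was also common where no window was listed. In 500 bases around the most 5′ start site it was found at 25 of the 34 junction genes (73.5%, interval 55.6 to 87.1), against 33.6% of coding genes and 34.4% at the same GC content. It stood at 12 of the 14 genes with a window there (85.7%) and at 13 of the 20 without (65%, 40.8 to 84.6), among them Dsg2, Cldn6 and Marveld3 with 3 copies each. These 2 intervals overlap. In coding genes the order was the other way, with 30.1% where a window was present and 36% where it was not. No cell in the list carries a stain, and the levels of SNAI and ZEB factors were not measured, so the match of letters says nothing of their binding here.

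**Figure D4:**
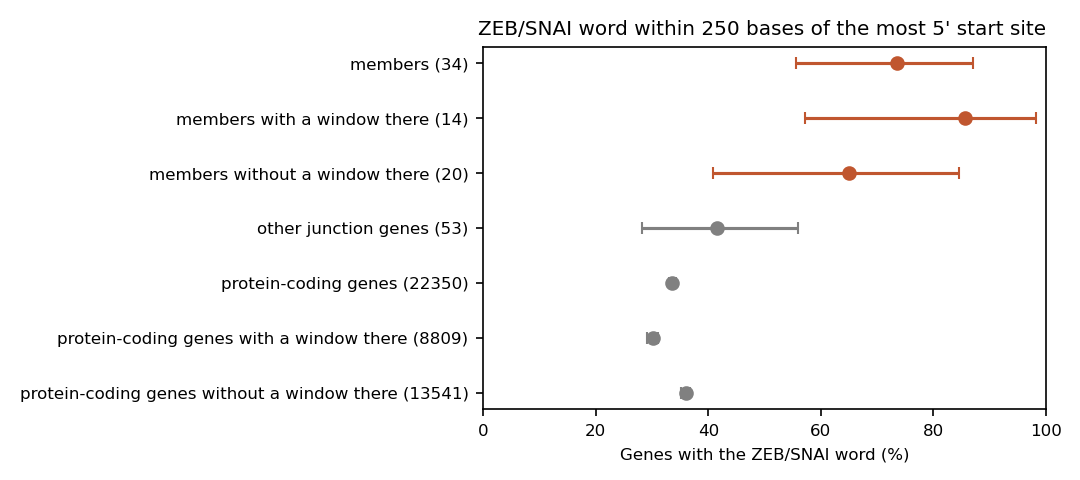
Percentage of genes with CAGGTG on either strand in 500 bases around the most 5′ start site (points, with exact 95% binomial intervals; number of genes in parentheses). The 34 junction genes stand at 73.5%, those with a window there at 85.7% and those without at 65%, the 53 other junction genes at 41.5% and all coding genes at 33.6%.

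The AP-1 word TGACTCA was found in 6 of the 22 promoter windows (27.3%, interval 10.7 to 50.2), at Cldn4, Ocln, F11r, Ctnna1, Pkp3 and Perp, against 7.78% of all windows near start sites and 7.19% at like GC content. In 500 bases around the most 5′ start site it was at 3 of the 34 genes (8.82%, 1.86 to 23.7), against 6.15% of coding genes, and it was in 2 of 29 promoter windows of further junction genes (6.9%). The intron, intergenic and exon windows were over 1 kb from any start site. Their share was 17.6% (11.4 to 25.4), against 15.6% of all such windows and 16.5% within 50 kb of a coding start site. Over all windows within 50 kb of junction genes the share was 18.3% (36 windows), against 13.5% of the list. An intergenic window 19328 bp upstream of Pkp3, nearer to B4galnt4, held 3 copies. The word was also in 3 of the windows around Cdh1. That in an intron of Cdh1 was nearest to Cdh1 and the others to Gm10073.

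Of the other words searched, on both strands, GRHL (AACCNGTT) was in 9 windows within 50 kb (4.57%, against 3.55% of the list), TEAD (GGAATG) in 23.9% against 24.3%, RUNX (TGTGGT) in 28.9% against 33.4% and PU.1 (GAGGAAGT), a leukocyte factor, in 4.57% against 4.96%. ETS (CCGGAA) was in 19.8% against 13.8%, and at the promoters of junction genes in 31.8% against 31.2% of all windows near start sites. CAGGTG was in 44.7% of windows within 50 kb against 34.6%, and in 40.8% of the distal ones (32.1 to 49.9) against 35.3%. Distal windows within 50 kb of any coding start site stood at 36%. The CTCF word, made of CCA, 2 free bases, AG, 2 free bases and GGC, was in 21 of them (10.7%, 6.72 to 15.8) against 4.59%. Its letters can overlap those of CAGGTG. The GRHL windows over 1 kb from a start site numbered 8, and the remaining one was the promoter window of Cgn.

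**Figure D5:**
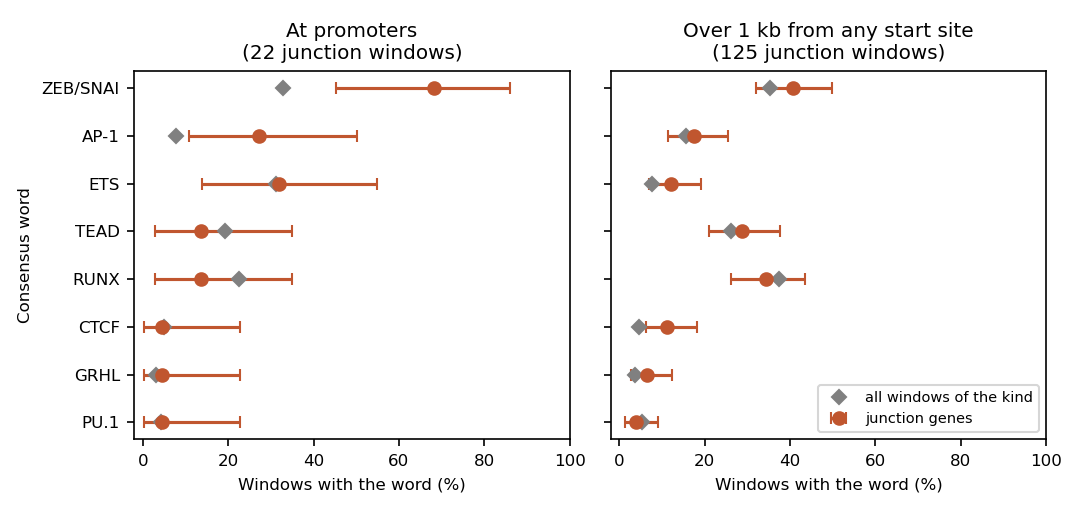
Percentage of windows that hold each consensus word on either strand, for junction genes (orange points with exact 95% binomial intervals) and for all windows (grey diamonds). Left, windows within 1 kb of a start site, for junction genes their own. Right, windows over 1 kb from any start site, where the diamonds include windows over 50 kb from a coding start site. At the 22 junction promoter windows ZEB/SNAI (CAGGTG) stands at 68.2% against 32.9% and AP-1 at 27.3% against 7.78%; in the windows over 1 kb from any start site AP-1 stands at 17.6% against 15.6%.

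A further list of 53 junction genes, made up of members of the same families and of gap junctions, gave promoter windows at 23 (43.4%, interval 29.8 to 57.7). The share was 43.5% over all coding genes. It averaged 49.1% for coding genes of the same CpG classes, equal to an expected 26.0 of the 53. In the tight class they were at 6 of 18 (among them Cldn5, Jam2, Esam, Magi3 and Inadl), in the adherens class at 8 of 11 (Ctnna3, Ctnnal1, Vcl, Mllt4 and the nectin genes Pvrl1, Pvrl2, Pvrl3 and Pvrl4), in the desmosomal class at 2 of 10 (Pkp4 and Ppl) and in the polarity class at 7 of 9 (Pard6a, Pard6b, Prkci, Prkcz, Mpp5, Scrib and Dlg1). None of 5 gap junction genes had one, beside an expected 1.78 from their CpG classes. Adherens and polarity genes had higher shares than tight junction genes in both lists, whereas desmosomal genes were at 50% in one and 20% in the other. Coding genes of the same CpG classes averaged 47.5% for the tight, 60.8% for the adherens, 26.4% for the desmosomal and 70.8% for the polarity genes of the further list. In both lists these averages were also higher for adherens and polarity than for tight junction genes. The intervals of the shares are wide, and no order of the classes is read from them. The word CAGGTG stood at 22 of the 53 start sites (41.5%, 28.1 to 55.9), below the share of the 34. In promoter windows of the further list it was in 13 of 29 (44.8%). The share was 68.2% in those of the 34 and 32.9% in all windows near start sites.

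Markers of several cell types were looked up in the same way, beside the number that coding genes of the same CpG classes would give. Promoter windows were present at 2 of 7 epithelial markers (Elf3 and Esrp1, while Epcam, Krt8, Krt18, Krt19 and Grhl2 had none), beside 2.99. They were also present at 4 of 5 leukocyte markers (all but Ptprc, the CD45 gene), beside 2.25. They were present at 2 of 6 endothelial markers (Cldn5 and Esam, which are junction genes of endothelium), beside 2.03, at 3 of 4 fibroblast markers, beside 1.90, and at 2 of 4 neural markers, beside 2.83. Whether endothelial, fibroblast or neural cells were in the pool was not tested. The 7 epithelial markers had 2 to 9 windows within 50 kb, with a median of 4, against 3 over coding genes. Medians were 10 for leukocyte (range 4 to 13), 7 for endothelial (3 to 10), 2 for fibroblast (1 to 4) and 4 for neural markers (0 to 9). Which cells opened the junction genes was not tested, since the list carries no cell identity.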

How the data were processed

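Single cells of 1 PyMT mouse breast tumor were measured by Pi-ATAC in 4 plates of 96 wells, which form 1 group. The deposited list gives positions only (unit other), once for the whole pool. Per the labels and methods, the authors trimmed adapters, aligned reads with Bowtie2 2.1.0 to mm9, took out low-quality reads, mitochondrial reads and, with Picard 1.79, duplicates, called summits on aggregated cells with MACS2 at q 0.05 (version not given in the sources used here), widened them to 500 bp and kept the 50000 windows with the lowest q. The list holds no counts, so the depth behind a window is unknown.

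Windows were assigned by centre to all start sites of GENCODE vM1 genes, and words were searched on both strands of the mm9 sequence (NCBIM37), with Python 3.11.15, numpy 2.4.6, scipy 1.17.1, pysam 0.24.0 and matplotlib 3.10.9. Coordinates count from 1. Shares carry exact binomial (Clopper-Pearson) 95% intervals. No test was made, because there are no replicates or groups. The number of called peaks per chromosome was taken, as a lower bound, from the running numbers in the peak names. The procedures were tested on simulated data. The 34 genes, the further junction and marker lists and the words were chosen with earlier results of these data known. All listed genes matched. All 34 genes were named, promoter windows were described singly, and of the further genes those with a promoter window were named, except that 1 gene and 1 sequence are not reported here. Alternatives changed the promoter distance, start sites, reach, treatment of neighbours, classes, part of the window searched and chromosomes. Words at promoters of members only, the CpG split, the window medians by CpG class, the GC-matched share and the search around start sites were added after the data had been seen.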

Additional observations from a re-analysis of the deposited data

How the results depend on the processing

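The share of junction genes with a promoter window stayed within 41.2% to 58.8% under each alternative tried. Over coding genes the same settings gave 39.4% (most 5′ start site alone) to 47% (promoter within 2 kb). The class shares stayed inside their main intervals. The median number of windows per junction gene was 1 within 10 kb, the same as for coding genes, 9 within 100 kb, against 6, and 2 with windows given only to the nearest coding gene, against 1. Within 50 kb it was 4 around the most 5′ start site alone and 4.5 with overlapping windows merged, each against 3 for coding genes. In the central 200 bp, the shares of the windows within 50 kb were 9.64% for AP-1, 0% for GRHL, 10.7% for TEAD, 11.2% for ETS, 13.7% for RUNX, 24.9% for CAGGTG and 6.09% for CTCF, where a shorter stretch is searched. All windows then stood at 6.66%, 1.32%, 10.4%, 7.08%, 15.8%, 16.7% and 2.08%. ETS was at 12% over 1 kb from start sites (interval 6.87 to 19.0), against 7.53% of all such windows. Those within 50 kb of a coding start site stood at 8.27%. At promoters of junction genes only, an alternative chosen after seeing the data, shares were 27.3% for AP-1, 13.6% for TEAD, 31.8% for ETS, 13.6% for RUNX, 68.2% for CAGGTG and 4.55% for CTCF. In the same order, all windows within 1 kb of a start site stood at 7.78%, 19.3%, 31.2%, 22.4%, 32.9% and 4.91%. No paired analysis was possible because all wells form 1 group with 1 pooled list. The small classes, with 3 to 18 genes, and the lack of counts per window limit each share.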
